A study of Mus musculus with 6 samples.

Results

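The complement genes described here are C1ra, C1s1, C2, C3, C4b, C6, C7, Cfp and Serping1, 9 of the 22032 genes counted in temporomandibular joint tissue of mice without Igf2bp2 and of wild-type mice. They were taken by symbol, with earlier results of these data known. The C1q genes and Cfd were left out of the group and are given separately below. All 9 had a row in the count table, and 8 of them passed the filter on low counts, C6 being the exception. The temporomandibular joint joins the lower jaw to the skull. Poly(A) RNA from this tissue was sequenced in 6 libraries. In 3 of them the genotype is Igf2bp2-KO, which the series writes Igf2bp2-/-, and these are called KO here. The other 3 are wild type (WT), from littermates, and all mice were 10 weeks old with no treatment named. Values given for the 3 libraries of a group follow their numbers, 1, 2 and 3. The sex, the strain, the deleted stretch of Igf2bp2 and whether animals were pooled were not given in the sources used here. Igf2bp2 encodes a reader of m6A marks on RNA, and the series title ties it to loss of the bone under the joint surface.

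Complement is a cascade of secreted proteins that tags surfaces for uptake, recruits leukocytes and can open membranes. In the classical pathway C1q binds a target, the protease C1r activates the protease C1s, and C1s cleaves C4 and C2, whose fragments form the enzyme that cleaves C3. In the alternative pathway C3 fragments pair with factor B, and properdin, the product of Cfp, holds that enzyme together. Past C3 the late components, among them C6 and C7, assemble the membrane attack complex. SERPING1, the C1 inhibitor, blocks C1r and C1s. The liver makes most of the complement in blood, while fibroblasts, macrophages and other cells of tissues such as the synovium make components locally.

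The RefSeq promoter table (build GRCm38.p6, 250 bases before to 50 after a gene's start) held 6 of the 9 genes with 7 starts, C1s1 having 2. C2, C4b and Serping1 had no entry. C1ra, C3 and C7 are shown because they fell together in KO and because their windows held matches to the motifs searched. Capitals mark those matches, on either strand.
C3, chr17:57228087-57228386, minus strand: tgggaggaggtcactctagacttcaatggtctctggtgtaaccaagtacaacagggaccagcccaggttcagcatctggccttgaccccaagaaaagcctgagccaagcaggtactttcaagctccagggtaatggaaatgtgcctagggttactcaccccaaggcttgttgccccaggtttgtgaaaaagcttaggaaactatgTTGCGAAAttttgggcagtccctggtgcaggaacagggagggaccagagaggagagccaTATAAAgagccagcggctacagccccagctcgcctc
C7, chr15:5063724-5064023, minus strand: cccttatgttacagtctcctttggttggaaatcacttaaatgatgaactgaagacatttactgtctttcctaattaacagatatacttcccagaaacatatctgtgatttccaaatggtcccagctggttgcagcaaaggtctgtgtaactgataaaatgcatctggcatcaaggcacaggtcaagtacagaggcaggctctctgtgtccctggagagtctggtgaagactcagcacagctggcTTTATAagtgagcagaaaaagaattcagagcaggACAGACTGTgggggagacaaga
C1ra, chr6:124512371-124512670, plus strand: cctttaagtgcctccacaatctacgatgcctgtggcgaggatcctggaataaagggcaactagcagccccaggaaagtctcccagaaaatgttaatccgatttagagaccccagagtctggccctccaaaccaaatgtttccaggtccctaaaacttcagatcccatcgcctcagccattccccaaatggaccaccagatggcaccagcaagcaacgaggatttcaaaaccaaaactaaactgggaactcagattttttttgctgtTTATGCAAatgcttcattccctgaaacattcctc
Positions are counted from the annotated start as 1. In C3 the capitals are a C/EBP match (TTGCNNAA) beginning at base -45 and the TATA box letters (TATAAA) beginning at 15, past the start. In C7 they are the TATA box letters, on the opposite strand, at -6 and the core of a glucocorticoid receptor site (ACANNNTGT) at 29. In C1ra they are a C/EBP match at 17. The C/EBP letters were in 3 of the 7 windows, those of C1ra, C3 and 1 of C1s1, which was not called, the TATA box in 2 (C3 and C7) and the glucocorticoid receptor core in 1 (C7). Over all 32851 windows of the table, 10.8% held the C/EBP letters, 6.85% the glucocorticoid receptor core and 13.6% the TATA box. The AP-1 letters TGANTCA, the site of FOS and its partners, occurred in 7.81% of all windows and in none of the 7 windows of these genes. The clock E-box CACGTG was in 7.15% of all windows and likewise in none of these. These are matches of letters in a short window and were not measured as bound sites.

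Total counts were 28551236 to 35094127 per library, of which mitochondrial genes took 85.3% to 86.04% in KO and 90.55% to 90.85% in WT. The counts left for nuclear genes were 4604575 to 4899680 per KO library and 2625472 to 3205190 per WT library, so equal counts of a nuclear gene in both groups mean a lower share of the nuclear RNA in KO. In the median gene, KO 1 and KO 3 were no further apart than read sampling alone would put them, as were WT 2 and WT 3. Each pair was summed and counted as 1 sample, which leaves n = 2 per group: KO 1+3 and KO 2 against WT 1 and WT 2+3. Igf2bp2 itself had 13, 14 and 10 counts in the KO libraries and 38, 20 and 24 in the WT libraries. Scaled for depth, it stood in KO at 28.7% of its WT level. Levels are given in CPM, counts scaled to a library size that includes the mitochondrial counts. A nuclear gene thus has a lower CPM than its share of the nuclear counts alone would give. The tissue was mixed. Summed markers of salivary gland were 512 to 541 CPM in the KO libraries and 40.6 to 44.1 CPM in the WT libraries. Those of skeletal muscle were 6426 to 7528 CPM in KO and 4271 to 6001 CPM in WT. The part of these differences in the complement changes was not tested. Chondrocyte markers summed to 9.92 to 13.9 CPM. In such bulk tissue fewer cells of a type and less RNA per cell cannot be told apart.

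Complement transcripts were lower in the KO joint. C2, C4b and C7 stood at 34.0%, 38.9% and 38.8% of their WT level, and C1ra, C3 and Cfp at 62.3%, 64.1% and 63.6%. C1s1 and Serping1 were not called, at 85.7% and 75.4%. By edgeR's quasi-likelihood test, 6 of the 8 tested genes were lower and none higher at a false discovery rate (FDR, adjusted after Benjamini and Hochberg) under 0.05. Over all genes, 2580 of 14632 were called (17.6%), 8.48% as lower and 9.15% as higher. The median log2 fold change, KO minus WT, was -0.67 over the 8 genes and -0.01 over all tested genes. The genes were chosen with earlier results of these data known, so these comparisons with all genes are a description. In scaled CPM each of the 8 genes had its 3 KO libraries below its 3 WT libraries, as did 19.1% of all genes tested. These changes are relative to the bulk of genes, since the scaling by trimmed mean of M-values (TMM) sets that bulk near 0. With total counts and no scaling factor the median gene rose by 0.54, 386 genes were called lower (2.64% of those tested) and 7348 higher, only C2, C4b and C7 of the 8 genes were called lower, and C1s1 and Serping1 turned to 0.33 and 0.13. With the 6 libraries as separate samples 7 of the 8 genes were lower, Serping1 included, against 12.4% of all genes tested in that fit. As fitted with no scaling factor, C1ra, C3 and Cfp were at -0.14, -0.10 and -0.10 (edgeR FDR 0.549, 0.611 and 0.649). Relative to the median gene of that setting they were at -0.68, -0.64 and -0.64. Taking off the median sets the bulk of genes near 0, as TMM does, so these values are not a separate check.

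**Figure D1:**
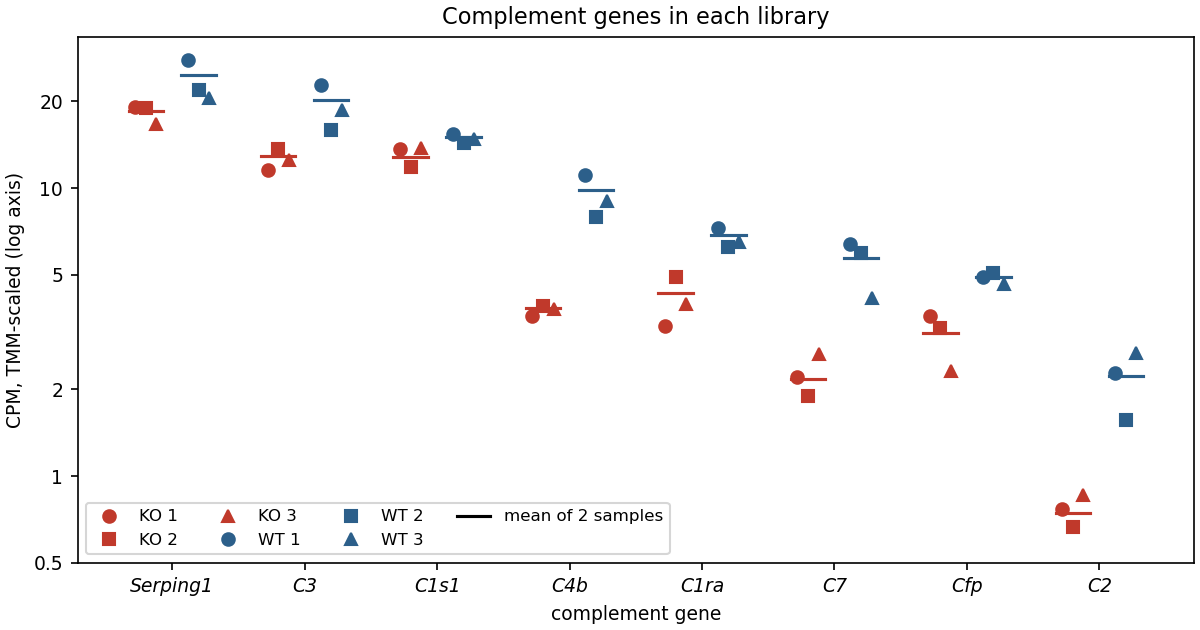
Level of each tested complement gene in CPM (log axis, TMM-scaled) in the 3 KO libraries (red) and the 3 WT libraries (blue), with a bar at the mean of the 2 samples of each group. In every gene the red points lie below the blue points, closely so in C1s1 (at most 13.8 CPM in KO and at least 14.4 CPM in WT) and far apart in C4b (at most 3.91 CPM in KO and at least 7.94 CPM in WT).

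C1r and C1s are the paired proteases of the first complex, and their genes lie side by side. C1ra had 129, 208 and 157 counts in the KO libraries, which is 3.31, 4.93 and 3.97 CPM, and 214, 143 and 167 counts in the WT libraries, which is 7.29, 6.24 and 6.49 CPM. KO 2 was the highest KO library, and the groups did not overlap. The KO samples averaged 4.31 ± 0.913 CPM and the WT samples 6.86 ± 0.649 CPM (SD, n = 2), with a log2 fold change of -0.68 ± 0.17 (SE) and an FDR of 0.0136 by edgeR. Without WT 1 the call was lost (-0.58, FDR 0.054). Leaving out WT 1 or KO 2 leaves that group with 1 summed sample, assumed to vary like the other group. A call lost there does not by itself show a smaller change. Without WT 1, however, the log2 fold change of each of the 8 tested genes described here was smaller in size. This did not hold for every gene of the wider complement lists. C3 was at -0.43 against -0.64 and Serping1 at -0.19 against -0.41. C1s1 had 13.7, 11.8 and 13.8 CPM in KO and 15.4, 14.4 and 14.8 CPM in WT, so the groups came close to each other. Its log2 fold change of -0.22 (95% interval -0.48 to 0.03, edgeR FDR 0.233) was not called, and no alternative setting called it. The interval includes no change and losses of up to 0.48.

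The ratio of C1ra to C1s1 counts does not depend on scaling between libraries. It was 0.242, 0.417 and 0.287 in the KO libraries and 0.474, 0.433 and 0.440 in the WT libraries. Every KO library was thus below every WT library, KO 2 by a small margin. Over the 2 samples per group the log2 ratio was -1.59 ± 0.463 in KO and -1.14 ± 0.0826 in WT, and the difference of -0.45 was no larger than the spread of the KO samples. The exact two-sided permutation test gave p = 0.333, the smallest p that 2 samples against 2 allow (adjusted over the 4 ratios examined, 0.666). C1ra shared 48.02% of the 50-base words of its longest GENCODE M21 transcript with its copy C1rb, and C1s1 shared 24.27% with C1s2. The handling of reads common to both copies was not given in the sources used here. C1rb and C1s2 had 66 and 17 counts over the WT libraries, against 524 for C1ra and 1162 for C1s1.

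Serping1, the inhibitor of both proteases, was the most abundant of the 9 genes. It had 744, 799 and 663 counts in the KO libraries and 817, 503 and 530 in the WT libraries. In CPM these were 19.1, 18.9 and 16.8 in KO and 27.8, 21.9 and 20.6 in WT, with WT 1 well above the other WT libraries. Over the samples, KO averaged 18.5 ± 0.713 CPM and the WT samples 24.6 ± 4.68 CPM (SD, n = 2), with a log2 fold change of -0.41 (SE 0.13), which narrowly missed the threshold (edgeR FDR 0.052). It was called lower under 8 of the 16 alternatives, the 6 libraries as separate samples among them (-0.36, FDR 0.0157), while without WT 1 it was at -0.19 (FDR 0.293). The ratio of Serping1 to C1s1 was 1.40, 1.60 and 1.21 in KO and 1.81, 1.52 and 1.40 in WT. The groups overlapped in that ratio (exact permutation p = 0.667).

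C4 and C2 supply the fragments of the classical enzyme that cleaves C3, and both were among the 3 genes that fell most. C4b had 140, 165 and 150 counts in the KO libraries and 327, 182 and 232 in the WT libraries, or 3.60, 3.91 and 3.79 CPM against 11.1, 7.94 and 9.01 CPM. The KO libraries lay close together, and WT 1 was the highest WT library. The mean of the KO samples was 3.82 ± 0.152 CPM and that of the WT samples 9.87 ± 1.86 CPM (SD, n = 2), with a log2 fold change of -1.36 ± 0.16 (SE) and an FDR of 4.61e-05 by edgeR. All 16 alternatives called C4b lower, with values from -1.41 to -0.82, the last with no scaling factor. C4b shared 35.18% of its 50-base words with C4a, its near copy, which had no row in the count table. Whether reads of C4a were counted under C4b cannot be told.

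C2 was the least abundant gene tested, with 30, 28 and 34 counts in the KO libraries and 67, 36 and 69 in the WT libraries. The levels were 0.771, 0.664 and 0.860 CPM in KO and 2.28, 1.57 and 2.68 CPM in WT. WT 2 was the lowest WT library and was still above all KO libraries. Averaged over samples, KO had 0.743 ± 0.108 CPM and the WT samples 2.23 ± 0.087 CPM (SD, n = 2), with a log2 fold change of -1.56 ± 0.25 (SE) and an FDR of 0.000738 by edgeR. C2 was called lower in the 15 alternatives in which it was tested. The summed WT 2+3 sample hides that WT 2 and WT 3 differ here, so the SD of WT understates the spread over libraries. The model Gm20547 of the reference annotation holds 57.99% of the 50-base words of C2, and reads of overlapping models cannot be told apart.

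The ratio of C2 to C4b overlapped between the groups. C2 counts per C4b count were 0.214, 0.170 and 0.227 in the KO libraries and 0.205, 0.198 and 0.297 in the WT libraries, with a log2 difference of -0.24 (exact permutation p = 0.667). C4b per C3 count, by contrast, was 0.310, 0.285 and 0.303 in KO and 0.487, 0.497 and 0.481 in WT. All KO libraries were below all WT libraries, and the ratio was 1.65-fold lower in KO (log2 -1.76 ± 0.0745 in KO and -1.04 ± 0.0018 in WT, SD, n = 2). The exact permutation test could not go below the 0.333 it gave here. The fall of C4b relative to C3 was larger than the spread of the samples and needs no scaling between libraries.

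C4b, Cfb and C2 lie in that direction within the major histocompatibility region of chromosome 17, with other genes between them (gene order from RefSeq, GRCm38.p6). Cfb, which encodes factor B of the alternative pathway, also fell, from 2.32 ± 0.155 CPM in WT to 1.28 ± 0.213 CPM in KO (log2 -0.87, edgeR FDR 0.0193). The fold change was -1.03 without KO 2, -0.80 without WT 1 and -0.86 in the DESeq2 Wald test, where the call was lost (FDR 0.0567, 0.0675 and 0.103). The genes that lie between C4b and Cfb did not pass the test. Stk19, Dxo and Skiv2l had log2 fold changes of 0.06, 0.30 and 0.17 (edgeR FDR 0.867, 0.335 and 0.473). Nelfe, the nearest to Cfb, was at -0.50 (FDR 0.102), and Cyp21a1 was not tested. Beyond C2, Zbtb12 was at -0.61 (FDR 0.183) and Ehmt2 at -0.02 (FDR 0.947), while Hspa1b, a heat shock gene, was lower (-1.21, FDR 0.000482). These neighbours were named after their values were seen. Around all 9 genes, 5 protein-coding genes on each side and those between were taken. Of their 57 tested members 4 were lower, which is 7.02% against 8.48% of all tested genes, and 4 were higher. The 4 lower ones were Cfb, Hspa1b, the macrophage marker Adgre1, which 3 genes part from C3, and Ube2l6 next to Serping1, a ubiquitin-conjugating enzyme of the interferon response (-0.79, FDR 0.00522, and -0.67, FDR 0.0958, without KO 2).

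**Figure D2:**
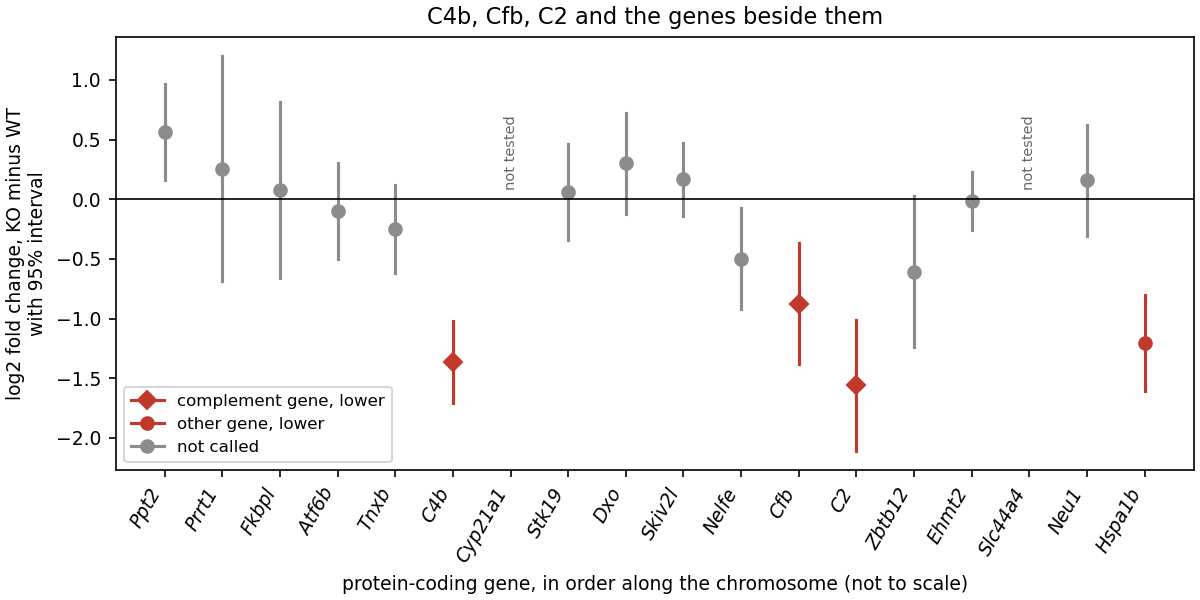
Log2 fold change, KO minus WT, with its 95% interval for each protein-coding gene from 5 genes before C4b to 5 genes after C2, in chromosome order and not to scale. C4b (-1.36), Cfb (-0.87) and C2 (-1.56) are lower, as is Hspa1b at the right end (-1.21), while the grey genes between C4b and Cfb were not called.

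C3, the component on which all pathways meet, had nearly the same raw counts in both groups, 1525 over the KO libraries and 1519 over the WT libraries. In CPM it had 11.6, 13.7 and 12.5 in the KO libraries and 22.8, 16.0 and 18.7 in the WT libraries. WT 1 stood highest and the groups did not overlap. The KO mean was 12.9 ± 1.18 CPM and the WT mean 20.2 ± 3.85 CPM (SD, n = 2), with a log2 fold change of -0.64 ± 0.14 (SE) and an FDR of 0.00667 by edgeR. C3 was called lower under 15 of the 16 alternatives, with the highest FDR among those calls without KO 2 (-0.73, FDR 0.049), and was at -0.10 (FDR 0.611) with no scaling factor. The same gene was at -0.43 without WT 1 (FDR 0.0287).

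The 3 genes with a mean of at least 10 CPM whose profile over the 6 libraries lay nearest to that of C3 were Nfic, Plpp3 and Cenpb. Nearness is the root mean square distance between centred log2 CPM values, which was 0.06, 0.07 and 0.07. Nfic encodes a transcription factor needed for tooth root formation, Plpp3 a lipid phosphate phosphatase and Cenpb a centromere protein. Nfic had 13.3, 14.8 and 12.9 CPM in KO and 24.7, 16.0 and 19.1 CPM in WT, with the same highest and lowest WT libraries as C3. The choice by nearness fixed that order and the fold changes of the 3 genes, which were -0.60, -0.58 and -0.64 and are given as a description. Of the other tested genes of the group described here, C1ra was nearest to C3 (0.14, rank 174 of all tested genes) and C2 farthest (0.50, rank 9243). Distances of the wider complement genes were not computed.

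Cfp, whose product properdin is stored and released by neutrophils and other leukocytes, was lower in KO. It had 140, 138 and 92 counts in the KO libraries and 144, 116 and 120 in the WT libraries, which is 3.60, 3.27 and 2.33 CPM against 4.90, 5.06 and 4.66 CPM. KO 3 was the lowest library and the groups did not overlap. The summed KO 1+3 sample hides that KO 1 and KO 3 differ here, so the SD of KO understates the spread over libraries. The KO samples averaged 3.13 ± 0.223 CPM and the WT samples 4.90 ± 0.0362 CPM (SD, n = 2), with a log2 fold change of -0.65 ± 0.16 (SE) and an FDR of 0.013 by edgeR. It was at -0.72 without KO 2, -0.51 without KO 3 and -0.65 in DESeq2's Wald test, and these did not pass (FDR 0.0748, 0.054 and 0.0773).

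Of the late components, C7 fell and C6 was too rare to test. C7 had 86, 80 and 105 counts in the KO libraries and 188, 137 and 107 in the WT libraries. In CPM these were 2.21, 1.90 and 2.65 in KO and 6.40, 5.98 and 4.16 in WT. WT 3 was the lowest WT library and remained above the highest KO library. The summed WT 2+3 sample hides that WT 2 and WT 3 differ here. The KO mean was 2.18 ± 0.382 CPM and the WT mean 5.74 ± 0.984 CPM (SD, n = 2), with a log2 fold change of -1.37 ± 0.19 (SE) and an FDR of 0.000222 by edgeR, and all 16 alternatives called it lower. C6, which lies next to C7 but for 1 gene, had 3, 2 and 0 counts in the KO libraries and 5, 0 and 7 in the WT libraries. Without a filter on low counts its difference was -1.81 (edgeR FDR 0.548), which a total of 17 counts cannot settle.

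**Figure D3:**
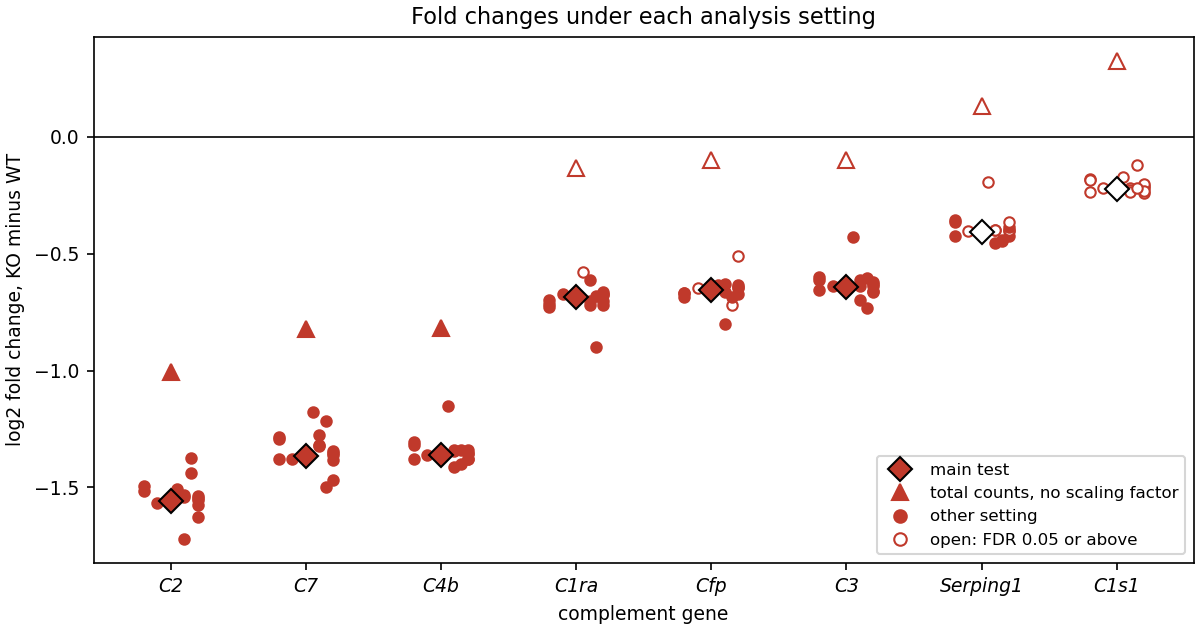
Log2 fold change, KO minus WT, of the 8 tested complement genes in the main test (diamond), with total counts and no scaling factor (triangle) and under the other settings (circles). Filled symbols have an FDR under 0.05. C2, C7 and C4b stay filled throughout, from -1.72 to -0.82, while only the triangles of C1s1 and Serping1 lie above 0 (0.33 and 0.13).

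Divided by transcript length, the order of the 8 tested genes was the same in both groups. Levels as CPM per kilobase of the longest transcript (RPKM) in WT were 13.9 ± 2.64 for Serping1, 5.11 ± 0.191 for C1s1 and 3.94 ± 0.749 for C3 (SD, n = 2). The transcript of the inhibitor was thus well above those of the proteases it blocks, while their proteins were not measured. The samples of Serping1, C1s1 and C3 did not overlap. Cfp followed with 3.00 ± 0.0221 and C1ra with 2.30 ± 0.218. C1ra overlapped with C7 (2.14 ± 0.368), and C7 with C4b (1.83 ± 0.346), so their order is not resolved. C2 came last at 0.845 ± 0.033. In KO the same genes ran from 10.5 ± 0.403 for Serping1 to 0.281 ± 0.0409 for C2, and only C7 (0.813 ± 0.143) and C4b (0.710 ± 0.0283) overlapped as neighbours.

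Among the other complement genes more were lower than higher, and most were not called. Lists of 52 further genes (starters and proteases, other thioester and terminal components, regulators, receptors) had 45 in the table and 27 tested. Of these, 9 were lower and 1 higher in KO by edgeR, against 8.48% and 9.15% of all tested genes, with a median log2 fold change of -0.46 against -0.01. Of the 3 C1q genes, made mainly by macrophages, 2 were lower. C1qa had 7.53 ± 0.579 CPM in KO and 11.8 ± 1.15 CPM in WT (-0.64, FDR 0.00371), and C1qc 5.47 ± 0.984 and 9.53 ± 1.96 (-0.80, FDR 0.008). C1qb was at -0.34 (FDR 0.0865) and was not called. Cfd, the adipocyte-made factor D, fell from 15.2 ± 1.14 to 5.52 ± 0.309 CPM (-1.47, FDR 3.39e-06). The pattern recognition gene Fcna, a ficolin of macrophages, was also lower (-1.44, FDR 0.0126), on 58 counts in KO and 106 in WT.

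Of 9 tested regulators 2 were lower and 1 higher, against 8.48% and 9.15% of all tested genes. Clu and Vtn, which bind the forming membrane attack complex, were at -1.18 (edgeR FDR 1.88e-05) and -0.76 (FDR 0.00598). Cd59a, the membrane protein that stops the last step of that complex, rose from 15.9 ± 1.83 to 21.5 ± 1.99 CPM (0.43, FDR 0.0269). The other membrane regulators Cd55, Cd46 and Cr1l were at -0.37, 0.09 and -0.04 and were not called (FDR 0.089, 0.905 and 0.895). Among receptors, Itgb2, the shared chain of the C3 fragment receptors CR3 and CR4, and Cd93, a surface protein of endothelial and myeloid cells, were lower (-0.92, FDR 0.0326, and -0.67, FDR 0.00239). The anaphylatoxin receptors C3ar1 and C5ar1 were near 1 CPM and were not called (-0.46, FDR 0.424, and -0.60, FDR 0.272). The other tested receptors, Vsig4, Itgax and Itgam, were at 1.76, 0.67 and -0.54 and were not called either (FDR 0.0657, 0.481 and 0.146). Vsig4 had 50 counts in KO and 9 in WT. Its KO libraries were all above its WT libraries, as in 2814 of the 14632 tested genes. Genes named here without a call were chosen after their values were seen. With no scaling factor C1qb turned to 0.21, and C1qa, C1qc, Cfb, Vtn, Itgb2 and Cd93 were not called.

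Several calls of the wider lists were lost when a library was left out, in the same direction as above. Without KO 2, where KO is 1 summed sample, C1qa was at -0.56 (edgeR FDR 0.105), Fcna at -1.43 (0.0825), Cd59a at 0.52 (0.113), Itgb2 at -0.64 (0.27) and Cd93 at -0.63 (0.0915). Cd59a was at 0.34 without WT 1 (0.086) and 0.38 without WT 3 (0.0738). Itgb2 was at -0.82 without WT 1 (0.107) and -0.79 without WT 2 (0.109). In the DESeq2 Wald test Cd59a and Itgb2 were at 0.44 and -0.94 (0.0773 and 0.115). C1qc, Cfd, Clu and Vtn kept their calls in each of these settings.

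**Figure D4:**
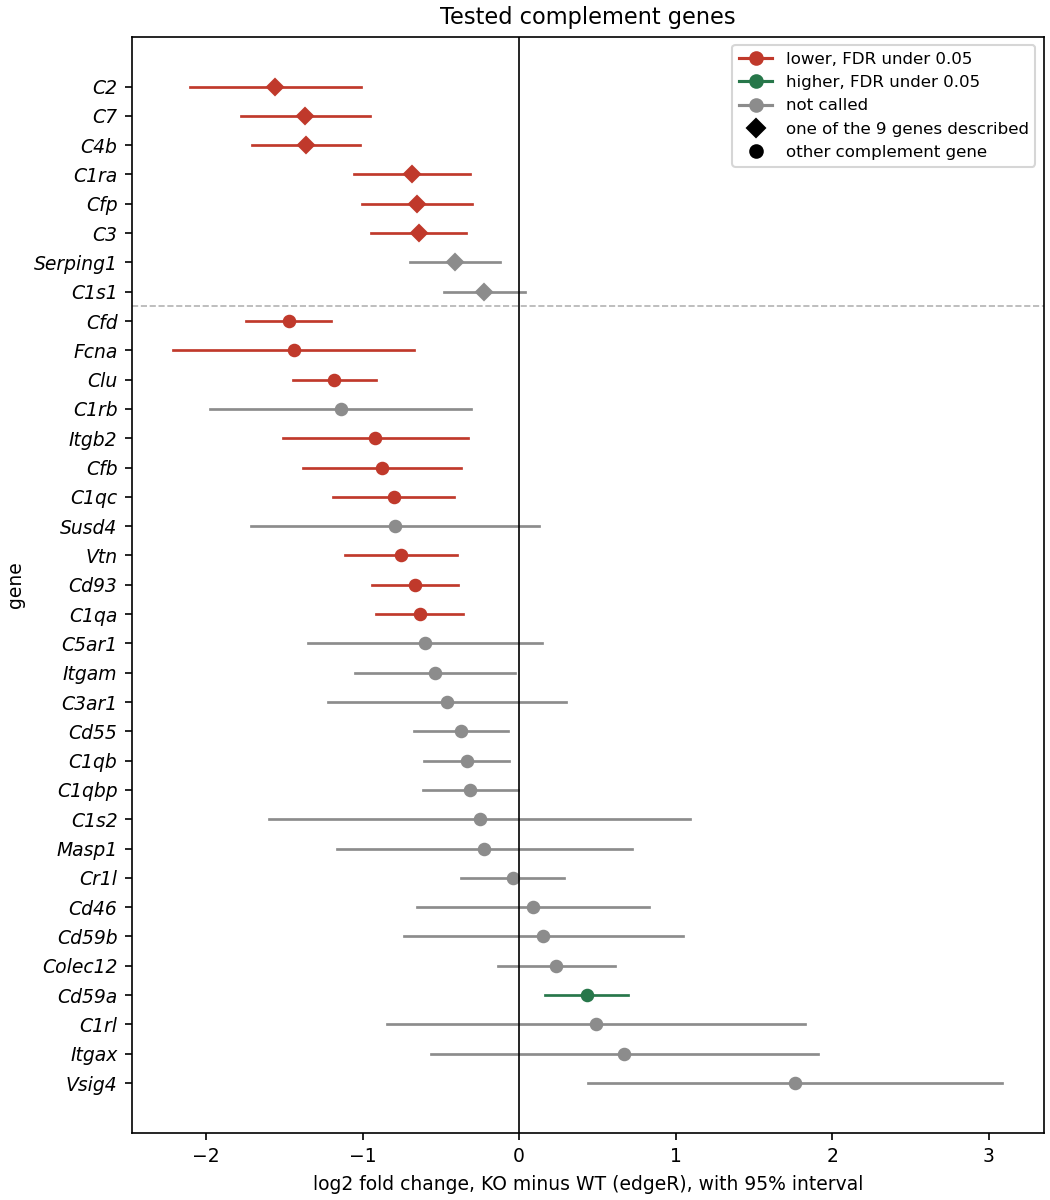
Log2 fold change, KO minus WT, with its 95% interval for the 8 tested genes of the group (diamonds, above the dashed line) and the 27 tested genes of the wider lists (circles). Red marks genes called lower (6 and 9), green the 1 called higher (Cd59a), grey those not called.

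Markers of several cell types that can make complement differed between the same libraries. Their counts stand against 8.48% lower and 9.15% higher of all tested genes. Of 10 macrophage markers 5 were lower and 1 higher, with a summed level of 29.6 to 31.9 CPM in KO and 40.0 to 49.9 CPM in WT. The most abundant, the growth factor receptor gene Csf1r, was at -1.01 (edgeR FDR 0.000216). Of 11 neutrophil markers 5 were tested and 3 were lower, with sums of 3.93 to 5.23 CPM in KO and 10.0 to 13.4 CPM in WT, and S100a9 was the most abundant (-1.87, FDR 3.98e-05). Hepatocyte markers were close to 0, with sums of 2.12 to 2.39 CPM in KO and 5.63 to 6.10 CPM in WT. Of 7 tested 4 were lower, Alb among them (-1.50, FDR 0.00136), and none of the 11 had 0 counts in all libraries. Of 10 tested fibroblast markers 2 were lower and 1 higher, with a median log2 fold change of -0.34 against -0.01 over all tested genes. In 5 of the 10 every KO library was below every WT library, as in 19.1% of all tested genes. In 1 every KO library was above, as in 2814 of the 14632 tested genes. The sums of the fibroblast list were 226 to 236 CPM in KO and 251 to 279 CPM in WT. Dcn, the most abundant, was at -0.13 (FDR 0.551).

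Of the other marker lists, adipocyte markers had 3 lower and 1 higher of 6 tested. Their sums overlapped between the groups (320 to 383 CPM in KO and 296 to 434 CPM in WT), but nearly all of that sum is Fabp4, at 283 to 412 CPM and -0.08 (edgeR FDR 0.836). Adipoq, the adiponectin gene, fell from 4.78 ± 0.449 to 1.31 ± 0.229 CPM (-1.88, FDR 2.25e-05), and Cidec and Retn were at -0.98 and -1.52 (FDR 0.00272 and 0.0454), while Lipe was higher (0.89, FDR 0.00669). All 7 tested salivary gland markers were higher, Bpifa2 rising from 21.2 ± 0.226 to 266 ± 4.61 CPM (3.65, FDR 1.51e-09). Of 10 skeletal muscle markers 4 were higher and none lower, and Ckm, the most abundant, was at 0.46 (FDR 0.137). Endothelial markers had 2 higher and 2 lower of 8, with sums of 283 to 295 CPM in KO and 248 to 252 CPM in WT. Of 5 synovial lining markers 2 were higher and 1 lower, with Prg4, the gene of lubricin, at 2.02 (FDR 2.14e-07). None of 6 tested chondrocyte markers was called, and Comp, the most abundant, was at -0.23 (FDR 0.346). All 9 Schwann cell markers were lower, with sums of 481 to 495 CPM in KO and 1414 to 1455 CPM in WT. The part of any of these cell types or tissues in the complement changes was not tested. Among genes that induce or accompany complement, 3 of 9 tested acute phase genes were lower and 1 higher, the last being Cebpd, a C/EBP transcription factor (1.14, FDR 0.00219). Of 14 interferon response genes 3 were lower and none higher, with a median of -0.31. All tested genes had 8.48% lower, 9.15% higher and a median of -0.01.

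**Figure D5:**
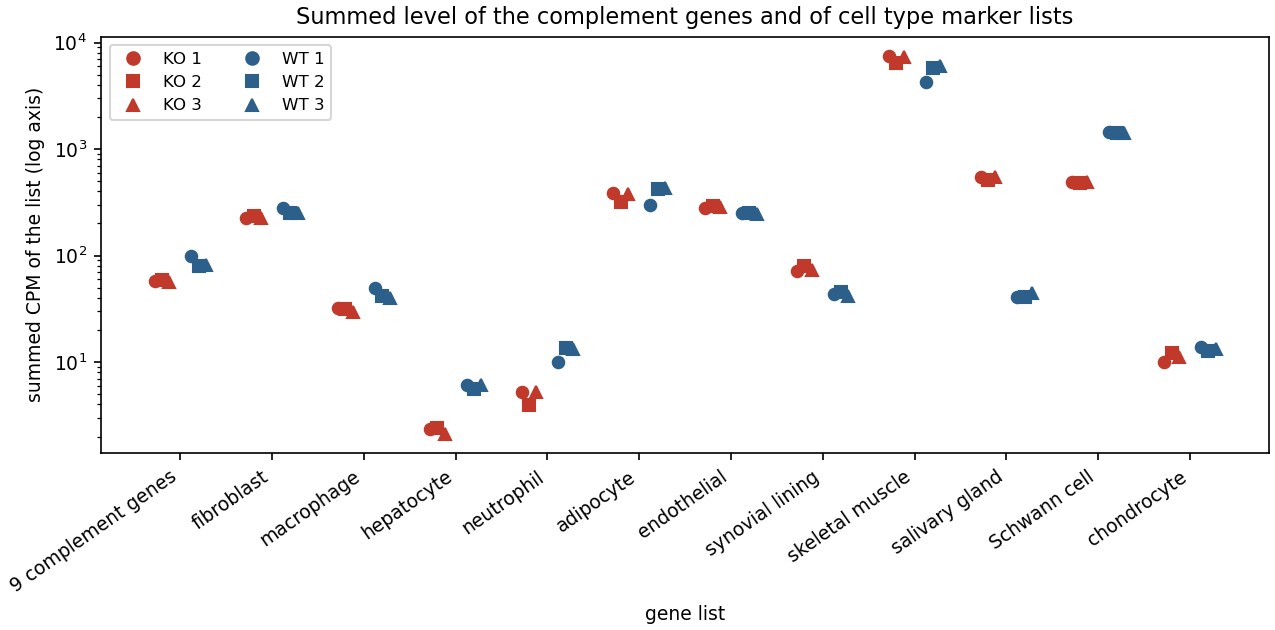
Summed CPM (log axis) of the 9 complement genes and of 11 cell type marker lists in the 3 KO (red) and 3 WT libraries (blue). The complement genes sum to 56.7 to 59.2 CPM in KO and 79.1 to 98.2 CPM in WT. The fibroblast, macrophage, neutrophil, hepatocyte, Schwann cell and chondrocyte lists have every KO library below every WT library, the salivary gland, skeletal muscle, synovial lining and endothelial lists have every KO library above, and adipocyte sums overlap.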

How the data were processed

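RNA-seq of temporomandibular joint tissue was analysed from the raw counts per gene that the authors deposited, 1 table with 1 column for each of the 6 libraries. HISAT2 2.1.0, StringTie 2.1.5 and the build mm39 are listed in the submitters' processing notes. Their roles, the annotation, the strand setting and the rule for shared reads were not given in the sources used here. Groups and replicate numbers came from sample titles. The 9 genes, the gene lists and the motifs were chosen with earlier results of these data known, and some listed items are not reported here. No label ties a library to its own animal, so the p-values reflect the spread among these samples only, and that spread may be technical.

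Within each group, the variance between 2 libraries was divided by that of sampling read pairs (2 counts each) over nuclear genes with at least 20 summed counts. Pairs with a median ratio under 1.1 were summed (KO 1 and KO 3, 0.94, and WT 2 and WT 3, 0.96, the others 1.31 to 1.63). Genes kept by filterByExpr (minimum count 10) were fitted with edgeR 4.0.16 in R 4.3.3: TMM factors, robust quasi-likelihood model, group as the term, Benjamini-Hochberg adjustment over 14632 genes. Standard errors are the absolute log2 fold change over the square root of F. The script was tested on simulated data. Alternatives used DESeq2 1.42.0, limma 3.58.1, other scalings and filters, the 6 separate libraries, a replicate block and leaving out each library. Lengths came from GENCODE M21, and distances to C3 used log2(CPM + 0.01). The text names the 9 genes, the C1q genes and Cfd, wider complement genes that passed, the most abundant marker of the lists described, and the 3 genes nearest to C3. Others were chosen after their values were seen. Counts carry no molecular identifiers, so they are not independent molecules.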

Additional observations from a re-analysis of the deposited data

How the results depend on the processing

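The count of complement genes called lower, 6 in the main test, was 5 to 7 when each library was left out and 5 to 7 under the other alternatives, except for total counts with no scaling factor, where it was 3. Over all tested genes that setting called 7734 genes, the DESeq2 Wald test 1634, and leaving out each library 1149 (without KO 2) to 2434, against 2580. With 6 separate libraries 3452 genes and 7 of the complement genes were called. Direction turned with no scaling factor for C1s1 (0.33), Serping1 (0.13), C1qb (0.21), Dcn (0.42), Fabp4 (0.48) and Comp (0.31), none of them called in the main test. That setting moves all genes alike, and relative to its median of 0.54 they were at -0.22, -0.41, -0.33, -0.13, -0.065 and -0.23. Direction also turned for Fabp4 when a library was left out (-0.342 to 0.0679, the last without KO 2). For the 8 tested genes, 110 of the single values under an alternative kept direction and call, 8 gained a call, all of Serping1, 7 lost one and 2 turned, the last with no scaling factor. C2 was not tested at 50 counts in 3 libraries. With the replicate number as a block on the 6 libraries, 7 complement genes and 2941 genes were called. Same-numbered libraries deviated together with correlations of -0.107, -0.14 and 0.081, and KO 1 and KO 2 correlated best with the WT library of the other number, so the numbers were not taken to pair the libraries. Depth limits C6, which had 17 counts in all.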
